A study of Mus musculus with 6 samples.

Results

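Cebpa, Cebpb, Cebpd and Cebpg encode members of the CCAAT/enhancer binding protein (C/EBP) family of transcription factors. They were taken by gene symbol, using the probe sets that the array annotation assigns to these symbols alone. All 4 were found among the 18194 genes named on the array, with 8 of its 45101 probe sets: 1 for Cebpa, 2 for Cebpb, 2 for Cebpd and 3 for Cebpg. Colon and liver of male C57BL6/J mice, aged 7 weeks in the labels, were profiled on Affymetrix expression arrays covering the mouse genome. Mice of the control group (CON) ate a basal diet and drank plain water. DSS mice ate the same diet and, after 7 days of plain water, received 1.5% (w/v) dextran sodium sulphate (DSS), a polymer that damages the colonic lining and so causes colitis, for 10 days. DSSPAR mice ate the basal diet with 2% parsley from the beginning and, after 7 days, received 1.5% DSS for 9 days, so that diet and days of exposure differ together between DSSPAR and DSS in the treatment protocols. The growth protocol gives 9 days in a sentence that does not settle the duration for DSS. There was no group fed parsley without the polymer.

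C/EBP proteins bind DNA as dimers through a shared basic leucine zipper (bZIP) and partner with one another and with other bZIP factors. In liver, C/EBPα maintains genes of glucose, nitrogen and lipid metabolism and restrains growth, while C/EBPβ and C/EBPδ act downstream of interleukin 6 and interleukin 1 to drive the acute phase genes. C/EBPβ and C/EBPδ also serve cytokine responses in macrophages and epithelia, and C/EBPγ, which lacks an activation domain, modulates its partners and pairs with ATF4 in amino acid stress. The arrays measure mRNA and cannot tell apart the activating and inhibitory proteins made from the single Cebpb transcript.

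The DNA just upstream of Cebpb, Cebpa and Cebpg is shown to compare the promoter letters of family members, and none is printed for Cebpd. Each is the last 100 bases before the RefSeq transcript start, written along the gene's own strand on build GRCm38.p6. Capitals mark matches on either strand to any of 6 motifs, searched for as C/EBP (TTGCNNAA), STAT (TTCCNGGAA), the cAMP response element (TGACGTCA), its short core (TGACG), the TATA box (TATAAA) and Sp1 (GGGCGG). The core also lies within each full cAMP response element, and no full element was found here.
Cebpb, chr2:167688815-167688914, plus strand: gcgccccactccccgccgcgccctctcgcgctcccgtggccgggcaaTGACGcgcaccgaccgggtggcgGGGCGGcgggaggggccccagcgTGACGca
Cebpa, chr7:35119193-35119292, plus strand: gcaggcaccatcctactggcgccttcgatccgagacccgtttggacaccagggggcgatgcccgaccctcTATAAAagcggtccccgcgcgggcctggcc
Cebpg, chr7:35056567-35056666, minus strand: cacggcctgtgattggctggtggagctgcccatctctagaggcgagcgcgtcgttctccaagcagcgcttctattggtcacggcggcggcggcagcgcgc

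In the full window of 300 bases, 250 before and 50 after the start, Cebpb held 3 matches to the core, 5 to Sp1 and 1 to the TATA box, which lay after the annotated start. Cebpa held 1 TATA box match, 30 bases before its start, and Cebpg 1 Sp1 match after its start. None of these 3 windows held the C/EBP or STAT letters. Among 32851 RefSeq promoters of this length, 20.8% held the core, 35.7% Sp1, 13.6% the TATA box, 10.8% the C/EBP motif, 1.79% the full cAMP response element and 1.15% the STAT motif. Cebpg and Cebpa lie near each other on chromosome 7, with 2 predicted genes between them in the RefSeq table.

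Genes known as targets of these factors were examined in the same way, and the share with the C/EBP letters was above that of all genes in 4 groups of targets. Of 23 acute phase genes with a RefSeq promoter, 14 (60.9%) held TTGCNNAA on either strand, against 12.2% of 27025 genes in the table. The share was 42.9% of 7 adipogenic targets, 30.8% of 13 hepatocyte metabolic targets, 27.8% of 18 myeloid and inflammatory targets and 9.52% of 21 amino acid and endoplasmic reticulum (ER) stress genes. These lists were assembled from genes known to respond to C/EBP proteins, so the shares are no independent evidence of binding, and a match shows letters only. The following windows are from target genes that were called higher in DSS than in CON in colon or liver, with the motif in capitals and 10 bases on each side, along the gene's own strand on GRCm38.p6.
Saa1, chr7:46743145-46743172, minus strand: tgtgctcccaTTGCACAAtgagggagaa
Saa2, chr7:46751640-46751667, plus strand: tgtgctcccaTTGCACAAtgagggaaaa
Saa3, chr7:46715758-46715785, minus strand: gtaagtgggaTTATGCAAgatcaaacag
Orm2, chr4:63362319-63362346, plus strand: agagaacattTTGCGCAAgacatttccc
Orm3, chr4:63356027-63356054, plus strand: agggaacattTTGCACAAgacatttatc
Lcn2, chr2:32387938-32387965, minus strand: gcccttcctgTTGCTCAAccttgcacag
Il6, chr5:30012976-30013003, plus strand: cgacgtcacaTTGTGCAAtcttaataag
S100a9, chr3:90695940-90695967, minus strand: gtaggctgtcTTGCTTAAgatttgggcg

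**Figure D1:**
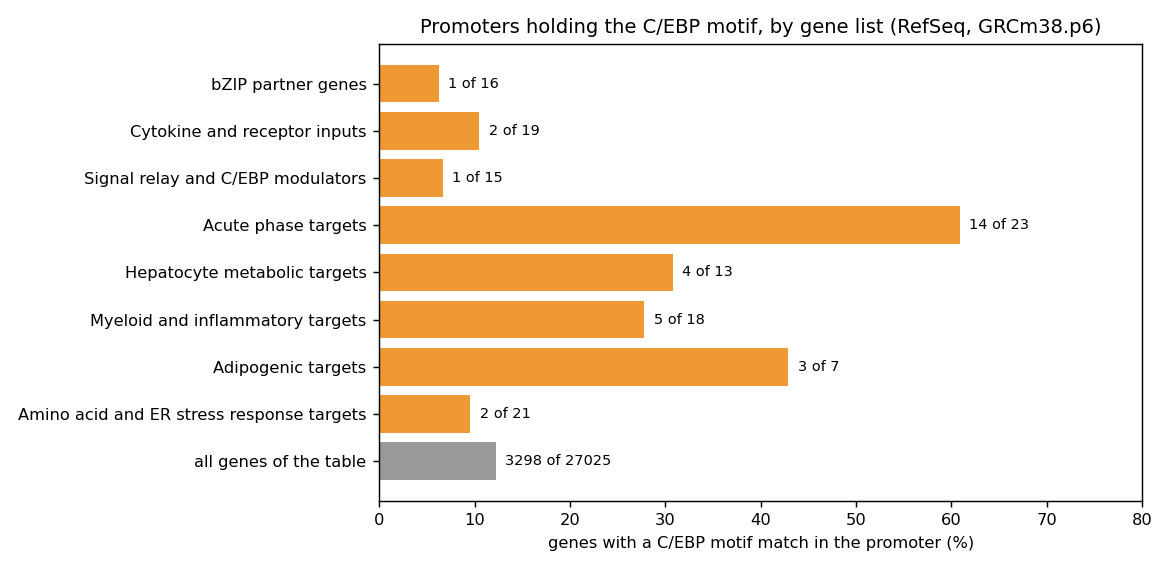
Percentage of genes with a match to the C/EBP motif in the RefSeq promoter (horizontal axis), for each list of C/EBP-related genes and for all genes of the table (grey bar). The acute phase bar stands at 60.9% (14 of 23 genes) and the bar for all genes at 12.2%, and the numbers of genes are printed at the bars.

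Each group's RNA was a pool over 7 mice, hybridised to 1 array per tissue, which makes 6 arrays. No difference therefore has a replicate check, no p-value is given, and precision is limited by how few arrays there are. Values are linear intensities, scaled by the authors. The median over all 3 arrays of a tissue, 25.1 in colon and 96.6 in liver, served as a floor under which a signal was not taken as measured. A gene is read through its brightest probe set unless stated, and is called higher or lower when it differs at least 2-fold (a log2 ratio of 1). The log2 ratios of a gene's brightest and second probe sets differed with a robust SD of 0.36 to 0.42 in colon. In liver this spread between probe sets was 0.48 to 0.57, and the design gives no other measure of scatter. Both probe sets were read from the same pooled RNA on the same array. How far a second pool or array would differ is not known, so a ratio beyond this spread may still lie within that variation. The array medians themselves differed by up to 0.28 log2 units within colon and 0.31 within liver, DSSPAR being lowest, while the median gene in a comparison differed by -0.04 to 0.04. All 12 colonic epithelium markers were above the floor in colon, and 7 of them also in liver. All 9 hepatocyte markers on the array were above the floor in liver, and 5 of them also in colon, where Alb, Apoa1, Asgr1 and Fgb lay under it in every array.

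**Figure D2:**
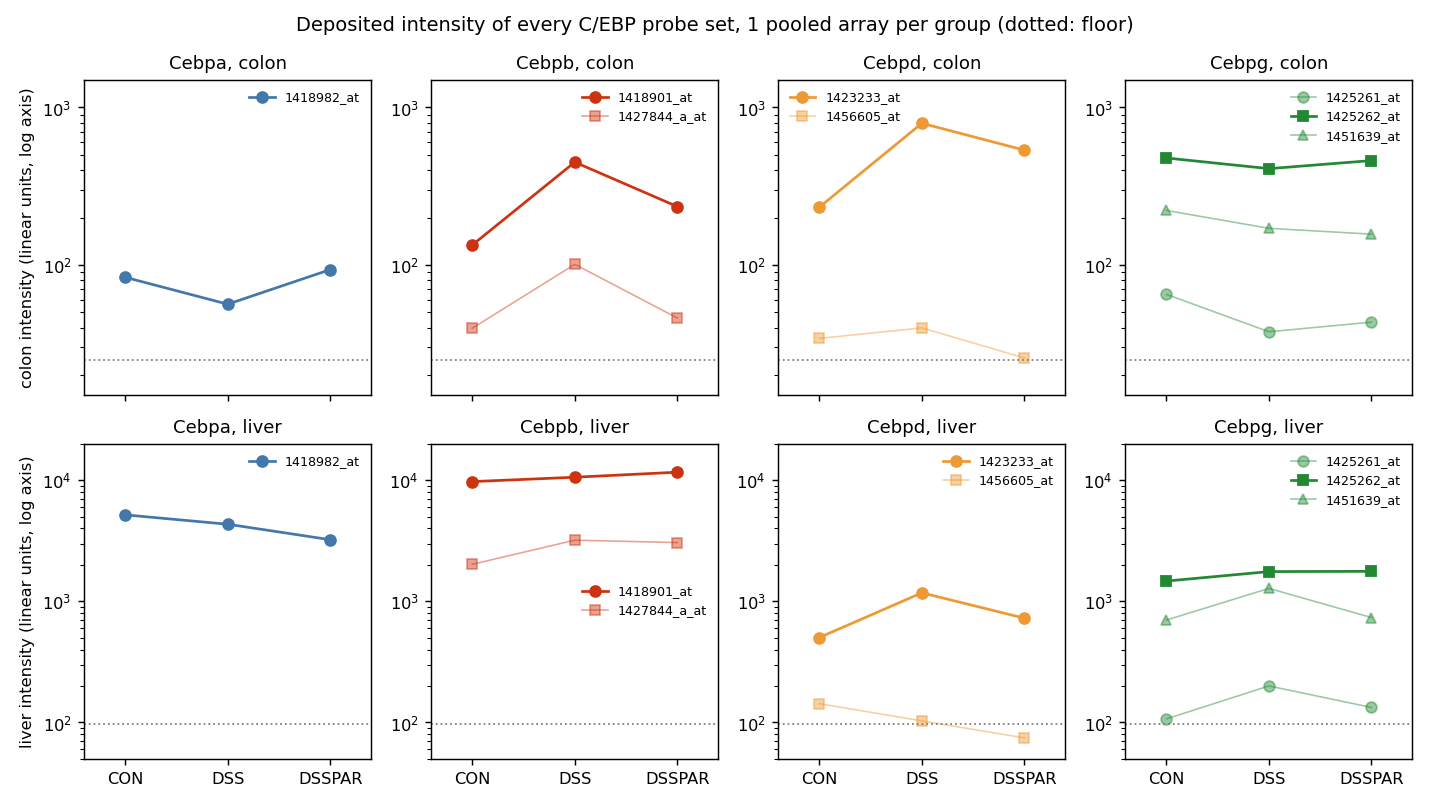
Deposited intensity (vertical log axis, linear units) of each C/EBP probe set in CON, DSS and DSSPAR, in colon (top) and liver (bottom), with 1 point per pooled array and the floor dotted. Solid lines are the brightest probe sets. Cebpb and Cebpd peak in DSS in colon, Cebpd peaks in DSS in liver through its bright probe set only, and Cebpa declines from 5180 to 3231 in liver.

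In colon, the inflammatory members Cebpb and Cebpd were both higher in DSS than in CON, and Cebpa was lower. Cebpd, whose product sustains inflammatory gene expression, had an intensity of 233 in CON, 794 in DSS and 536 in DSSPAR. Cebpd was thus 3.41-fold higher in DSS than in CON (log2 ratio 1.77), and 156 of 11952 genes had a higher ratio. Cebpb, the interleukin 6 responsive member, had an intensity of 134 in CON, 449.8 in DSS and 235 in DSSPAR. It was 3.36-fold higher in DSS (log2 ratio 1.75), and its second probe set, with 39.7, 101 and 46.1 in the same order, was 2.55-fold higher. The difference exceeds the spread between probe sets in this comparison (0.41) for both Cebpb probe sets. Of the 4 genes 2 were called higher in DSS and none was called lower, where 5.18% of all genes tested were called higher and 1.97% lower.

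The call for Cebpd rested on its bright probe set. The other, at 34.2, 39.9 and 25.7 in CON, DSS and DSSPAR, stayed close to the floor of 25.1 in all 3 colon arrays and gave a log2 ratio of 0.22 for DSS over CON. The mean over both gave 1.00, just short of the call. The annotation lists no accession for this dim probe set.

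Cebpa, the factor of differentiated metabolic cells, had an intensity of 83.6 in CON, 56.4 in DSS and 93.5 in DSSPAR in colon. It was lowest in DSS, 1.48-fold below CON (log2 ratio -0.57), short of the 2-fold threshold, with 981 genes having a lower ratio. Cebpg, the partner without an activation domain, had 478, 409 and 460.2 in CON, DSS and DSSPAR. Its log2 ratio of -0.22 for DSS over CON was smaller than the spread between probe sets, while its dimmer probe sets gave -0.38 and -0.79. All 3 Cebpg probe sets lay below CON in the DSS colon, though none reached 2-fold.

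A difference between the log2 ratios of a pair of genes does not depend on how an array was scaled. In colon the ratio of DSS to CON was 2.32 log2 units higher for Cebpb than for Cebpa, or 4.99-fold. For Cebpd against Cebpa it was 2.34, or 5.06-fold. By these brightest probe sets Cebpb and Cebpd differed from each other by 0.02, Cebpd being higher.

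The comparison of DSSPAR with DSS asked how colitis mice given parsley differed from those without it. In colon the 4 genes lay between DSS and CON or past CON, and none passed 2-fold in either direction through its brightest probe set, where 0.392% of genes were called higher and 1.24% lower. Cebpb was 1.91-fold lower in DSSPAR than in DSS (log2 ratio -0.94), with 181 of 11730 genes having a lower ratio. Its second probe set was 2.20-fold lower, past the threshold, and the mean over both was past it as well (-1.04). Cebpd was 1.48-fold lower (log2 ratio -0.57), and its dim probe set also lay lower (-0.64). Cebpa was 1.66-fold higher (log2 ratio 0.73), and 157 of the 11730 genes had a higher ratio. Its level in DSSPAR, 93.5, was above that of CON. Cebpg differed by 0.17, less than the spread of 0.36 between probe sets. The difference between the DSSPAR to DSS ratios of Cebpb and Cebpa was 1.67 log2 units, or 3.17-fold, Cebpb being lower.

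Against CON, the DSSPAR colon had Cebpd 2.30-fold higher (log2 ratio 1.20) by its bright probe set, with 248 of 11808 genes higher still. The dim probe set lay on the other side of CON (-0.41), and the mean over both was 0.39. Cebpb was 1.76-fold higher (log2 ratio 0.81), and 1.09 when arrays were centred on their medians, which passes the threshold. Its second probe set gave 0.22. Cebpa (0.16) and Cebpg (-0.05) differed from CON by less than the spread between probe sets of 0.42. Cebpd was thus the 1 member called, where 3.51% of genes were called higher and 2.10% lower. The ratio for Cebpd exceeded that for Cebpa by 1.04 log2 units and that for Cebpb exceeded it by 0.65. These comparisons share arrays, so their values are given side by side and are not independent.

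**Figure D3:**
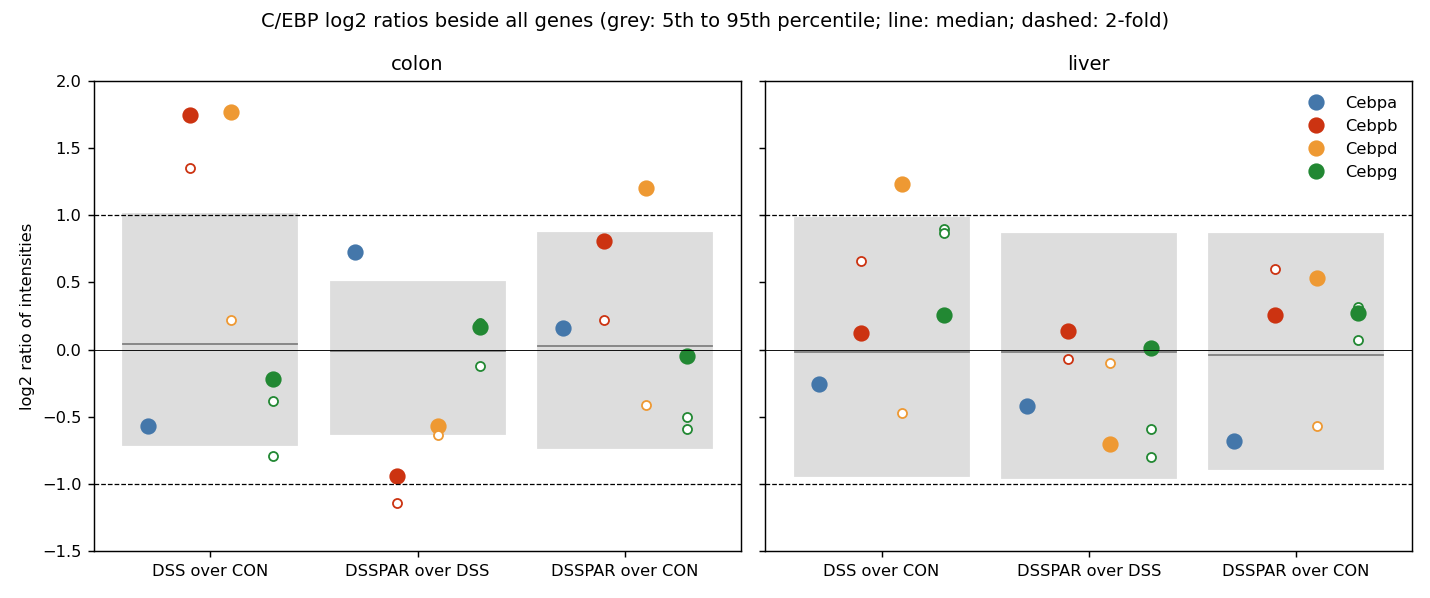
Log2 ratio of intensities (vertical axis) of the 4 genes in the 3 comparisons, in colon (left) and liver (right). Filled circles are brightest probe sets and open circles other probe sets, grey bands run from the 5th to the 95th percentile of all genes with the median as a line, and dashed lines mark 2-fold. Cebpb (1.75) and Cebpd (1.77) stand above the band for DSS over CON in colon, whereas in liver Cebpd (1.23) does so and Cebpb (0.12) does not.

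In liver, Cebpd alone among the 4 genes was called, and Cebpa was lower in both treated groups. Cebpd had an intensity of 503 in CON, 1177 in DSS and 726 in DSSPAR, again highest in DSS. It was 2.34-fold higher in DSS than in CON (log2 ratio 1.23), and 332 of 13034 genes had a higher ratio. Its dim probe set ran the other way, with 143, 103 and 74.6 (log2 ratio -0.47 for DSS over CON), the last under the floor of 96.6, and the mean over both was 0.38. In this comparison 4.73% of genes were called higher and 4.20% lower.

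Cebpa in liver had an intensity of 5180 in CON, 4335 in DSS and 3231 in DSSPAR, so that DSSPAR was lowest. The log2 ratio was -0.26 for DSS over CON, -0.42 for DSSPAR over DSS and -0.68 for DSSPAR over CON, where Cebpa was 1.60-fold lower and 1302 of 12721 genes had a lower ratio. The last of these exceeds the spread between probe sets (0.48) and the others do not (0.56 and 0.57). With arrays centred on their medians the 3 values were smaller, but all stayed below 0, the last at -0.37.

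Cebpb was a bright gene in liver and varied little there through its brightest probe set, with 9751 in CON, 10599 in DSS and 11660 in DSSPAR. The log2 ratio for DSS over CON was 0.12, well inside the spread between probe sets of 0.56. The second Cebpb probe set, with 2024, 3201 and 3059, was 1.58-fold higher in DSS than in CON (log2 ratio 0.66) and 1.51-fold higher in DSSPAR. The probe sets therefore differ in size but not in direction against CON. In liver DSS over CON, Cebpd exceeded Cebpb by 1.11 log2 units, or 2.15-fold, by the brightest probe sets. By the second probe sets the liver order was reversed (-0.47 for Cebpd and 0.66 for Cebpb), and in colon Cebpd (0.22) lay below Cebpb. Whether the response of Cebpb differs between the tissues could not be tested with 1 array per group.

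Cebpg in liver read 1471 in CON, 1762 in DSS and 1770 in DSSPAR. The dimmer Cebpg probe sets peaked in DSS, with 701, 1280 and 735 for 1 of them and 107, 200.3 and 133 for the other. They were 1.83-fold and 1.87-fold higher in DSS than in CON, against 1.20-fold for the brightest. All 3 Cebpg probe sets lay above CON in liver DSS and below CON in colon DSS, and no probe set passed 2-fold.

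The liver of DSSPAR mice had Cebpd 1.62-fold lower than that of DSS mice (log2 ratio -0.70) and 1.44-fold above CON (0.53). Its dim probe set gave -0.10 and -0.57, both bounds because the DSSPAR array lay under the floor. Cebpb differed by 0.14 between DSSPAR and DSS and by 0.26 between DSSPAR and CON. None of the 4 genes was called in either comparison. The shares of all genes called were 2.80% higher and 4.23% lower for DSSPAR over DSS and 3.26% higher and 3.45% lower for DSSPAR over CON. With arrays centred on their medians the counts behind these shares changed from 347 higher and 525 lower to 674 and 332, and from 415 and 439 to 1007 and 188. For DSS over CON in liver they changed from 616 and 548 to 854 and 349. In colon they changed from 46 and 146 to 108 and 79 for DSSPAR over DSS and from 415 and 248 to 890 and 121 for DSSPAR over CON, and quantile scaling gave 66 and 92 for the former.

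**Figure D4:**
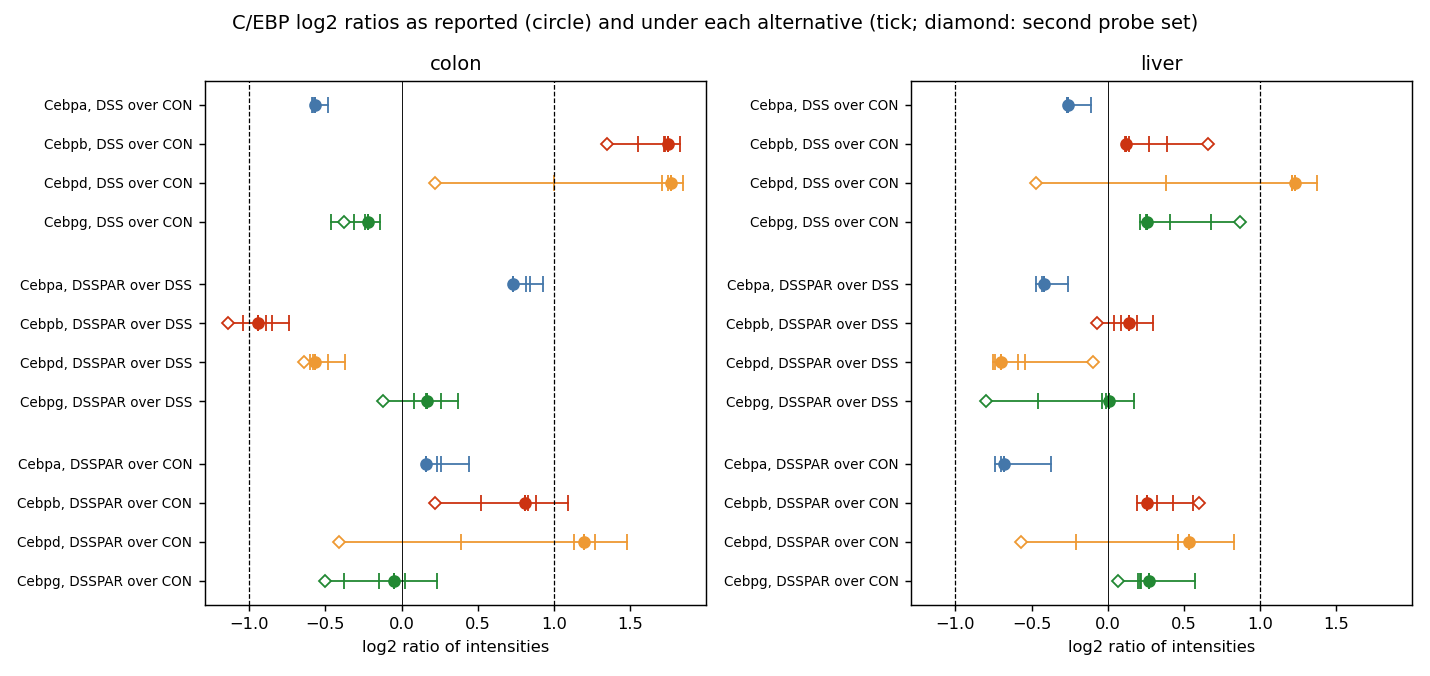
Log2 ratios (horizontal axis) of the 4 genes in each comparison as reported (filled circle) and under every alternative processing (ticks; diamond, second probe set), with 2-fold dashed. For DSS over CON the spread is widest for Cebpd, from 0.22 to 1.85 in colon and from -0.47 to 1.37 in liver. It is narrower for Cebpb in colon, where every value passes 2-fold and the highest is 1.83.

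Of the upstream signals, both cytokine and receptor genes were called higher in DSS in colon and in liver. Il6, the main inducer of C/EBPβ and C/EBPδ, had an intensity of 143 in colon DSS and lay under the floor in CON and in DSSPAR, so it was at least 5.71-fold higher in DSS than in CON and at least 5.71-fold higher than in DSSPAR. In liver Il6 passed the floor in DSS alone, by 1.03-fold. Il1b, another inducer, had 54.2, 369 and 293 in colon CON, DSS and DSSPAR, 6.80-fold higher in DSS. Osmr, the oncostatin M receptor, was 3.83-fold higher in colon DSS and 7.07-fold in liver DSS, and Il6st, the shared receptor chain of this cytokine family, 2.04-fold and 2.17-fold. Il1r1, the interleukin 1 receptor, had 785, 4709 and 1812 in liver, a log2 ratio of 2.58 for DSS over CON, against 0.42 in colon.

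Of 18 input genes measured in colon, 4 were called higher and none lower for DSS over CON (median 0.43, against 0.04 for all genes). For DSSPAR over DSS 1 was lower, Il6, and 15 of 18 lay below 0 (median -0.31, all genes -0.01). In liver 5 of 16 were higher for DSS over CON (median 0.27, all genes -0.02): Osmr, Il1r1, Il6st, the cytokine gene Il1a (at least 3.19-fold) and the receptor gene Tnfrsf1a (2.05-fold). Among 15 measured for DSSPAR over CON 7 were higher, including the receptor genes Osmr (3.55-fold), Il17ra (2.74-fold) and Il6ra (2.61-fold). Tnf was at least 2.21-fold higher in colon DSSPAR than in CON. Il6ra in colon lay the other way in the same comparison, at least 2.11-fold lower. Of all genes tested, 5.18% were called higher and 1.97% lower for DSS over CON in colon, and 1.24% lower for DSSPAR over DSS. In liver 4.73% were called higher for DSS over CON and 3.26% for DSSPAR over CON.

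Most of the relay genes were not called in either tissue. Socs3, the feedback inhibitor induced by STAT3, read 92.1, 1230 and 1025 in colon CON, DSS and DSSPAR, 13.4-fold higher in DSS. In liver it was 3133, 10215 and 6791, or 3.26-fold higher. Stat3, the transcription factor that carries the interleukin 6 signal, differed little in colon (1.18-fold) and was 2.05-fold higher in liver DSS and 3.24-fold higher in liver DSSPAR than in CON. Nfkbiz, whose product assists NF-κB and C/EBP at inflammatory promoters, was 2.26-fold higher in colon DSS and 5.87-fold in liver DSS, and then 2.33-fold lower in liver DSSPAR than in DSS. Trib1, a scaffold that promotes degradation of C/EBPα, was 2.23-fold lower in colon DSS than in CON, and in liver DSS it was 1.82-fold higher. Of 18 measured relay and modulator genes, 2 were higher and 1 lower in colon DSS (median 0.12), and 3 higher and none lower in liver DSS (median 0.24). The shares of all genes called were 5.18% higher and 1.97% lower in colon DSS, and 4.73% and 4.20% in liver DSS. Trib3, a relative of Trib1, was 2.57-fold lower in liver DSSPAR than in CON.

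Among potential dimer partners, most did not pass 2-fold, though most lay above CON in liver DSS. Ddit3 (CHOP), a C/EBP relative of ER stress, read 113, 103 and 103 in colon and 412, 379 and 326 in liver, with no call. Nfil3, a repressor of the bZIP class, was at least 2.01-fold higher in colon DSS and 2.20-fold higher in liver DSS, reaching 3.23-fold in liver DSSPAR. Fos, a subunit of AP-1, had 219, 1148 and 1563 in liver, 5.23-fold higher in DSS, while in colon it was 1.39-fold lower. Jund, another AP-1 subunit, was 2.56-fold lower and Batf at least 2.02-fold higher in colon DSSPAR than in CON, and Fosl2 was 2.18-fold lower in liver DSSPAR. Of 16 partners measured, 1 was higher in colon DSS (Nfil3) and 3 in liver DSS (Fos, Nfil3 and Atf3), with none lower. Of all genes tested, 5.18% were called higher in colon DSS and 4.73% in liver DSS. In liver DSS 14 of the 16 lay above 0 (median 0.46, all genes -0.02), and in colon DSS 10 (median 0.16, all genes 0.04). For DSSPAR over DSS in liver, 13 of 16 lay below 0 (median -0.21, all genes -0.02). Cebpe and Cebpz were not analysed here.

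The acute phase targets were higher in DSS in both tissues, and in liver most of them lay lower in DSSPAR than in DSS. In liver DSS 19 of 26 measured were called higher and 1 lower (median 2.12, all genes -0.02). Of all genes 4.73% were called higher there and 4.20% lower. Lcn2, a siderophore binding protein, had 227, 56782 and 35785 in liver CON, DSS and DSSPAR, a log2 ratio of 7.97 for DSS over CON. Orm2, an orosomucoid, read 513, 50824 and 42548, or 99.1-fold higher. Saa2 was 25.1-fold and Saa3 32.9-fold higher, both serum amyloid genes, and the metallothionein genes Mt2 and Mt1 were 70.8-fold and 46.5-fold higher. The serum amyloid and orosomucoid genes have near-identical copies, so how signal divides among them is uncertain. Hamp, the iron hormone hepcidin, was the exception in direction, 2.52-fold lower.

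For DSSPAR over DSS in liver, 23 of these 26 genes lay below 0 (median -0.62, all genes -0.02) and 3 were called lower. The share of all genes called lower was 4.23%. Against CON, 17 of the 26 were called higher in DSSPAR and 1 lower (median 1.60, all genes -0.04). Of all genes 3.26% were called higher against CON and 3.45% lower. Saa3 had 760.2, 25048 and 4031, 6.21-fold lower in DSSPAR than in DSS. Il1rn, the interleukin 1 receptor antagonist, was 2.22-fold lower, and Hp, haptoglobin, 2.00-fold. Lbp, which binds bacterial lipopolysaccharide, hardly differed (1057, 6347 and 6036). Hepatocyte markers as a list also lay lower in DSSPAR than in DSS, 7 of 9 below 0 (median -0.61) with none called, at summed intensities of 747486 in DSS, 480177 in DSSPAR and 557514 in CON; their part in the acute phase values was not tested.

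In colon 14 of the 26 acute phase genes on the array were measured for DSS over CON, and 9 were called higher in DSS with none lower (median 1.21). Of all genes 5.18% were called higher in that comparison and 1.97% lower. For DSSPAR over CON, 9 of 13 measured were called higher, again with none lower (median 1.47, all genes 0.03). The shares of all genes were then 3.51% higher and 2.10% lower. Hp read 10.1, 328 and 80.4 in CON, DSS and DSSPAR, at least 13.1-fold higher in DSS and then 4.07-fold lower in DSSPAR than in DSS. Saa3 read 140.2, 1825 and 616, 13.0-fold higher and then 2.96-fold lower. Lcn2 was at least 19.8-fold higher and then 4.35-fold lower, and Serpina3n, a protease inhibitor, at least 12.5-fold higher and then 2.74-fold lower. Those 4 genes were the ones called lower in DSSPAR than in DSS, where 1.24% of all genes were called lower. All 4 were highest in DSS with DSSPAR between DSS and CON, as were Cebpb and Cebpd. Choosing genes by that call largely fixes this order, so it is no evidence of a likeness. Over the list, 8 of 14 genes were highest in DSS. For DSSPAR over DSS, 8 lay below 0 and 6 above (median -0.13, all genes -0.01). Lbp (31.3, 332 and 287), Mt1 (1518, 3317 and 4566) and Mt2 (817, 2008 and 2043) did not have the order of those 4 genes or differed little between the treated groups.

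Hepatocyte metabolic targets of C/EBPα were called less often in liver DSS than the acute phase genes. In liver DSS 4 of 18 were called lower and none higher (median -0.19, all genes -0.02). Of all genes 4.20% were called lower there and 4.73% higher. G6pc, the last enzyme of glucose release, read 5536, 538 and 1960 in CON, DSS and DSSPAR, 10.3-fold lower in DSS. Gys2, liver glycogen synthase, was 2.68-fold lower, Slc2a2, the hepatocyte glucose transporter, 2.42-fold and Ass1, of the urea cycle, 2.31-fold. Ass1 was the dimmest of these 4 in every liver array, at 408, 177 and 256, against a floor of 96.6. For DSSPAR over DSS, G6pc was 3.64-fold, Pck1, the first committed enzyme of gluconeogenesis, 2.76-fold and Gys2 2.19-fold higher. Those 3 of 18 were the genes called higher, where 2.80% of all genes were called higher. The order of Cebpa in liver, CON above DSS above DSSPAR, was found in 4 of the 18 genes, among them Cps1 and Otc of the urea cycle, and not in the other 14, of which 10 were lowest in DSS.

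In colon, where Cebpa was lowest in DSS, 6 of the 9 genes measured were lowest there too. Among the 6, Adh1 (log2 ratio -0.06 for DSS over CON) and Ugp2 (-0.11) were well inside the probe set spread of 0.41. The share of all genes with such an order was not counted, here or in liver, so no likeness to Cebpa can be read from these counts. Ttr, transthyretin, read 1547, 408 and 1092 in CON, DSS and DSSPAR, 3.79-fold lower in DSS and 2.68-fold higher again in DSSPAR. Otc read 163, 18.1 and 57.1, at least 6.50-fold lower in DSS. Pck1 read 358, 121 and 179, and Cps1 100.1, 55.4 and 108, the latter 1.81-fold lower. Of 9 genes measured, 3 were called lower and 1 higher in DSS, the higher being the growth factor gene Igf1 (2.47-fold). Of all genes 1.97% were called lower there and 5.18% higher.

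Most myeloid and inflammatory targets measured in colon were higher in DSS. In colon DSS 12 of 16 measured were called higher and none lower (median 2.49, all genes 0.04). Of all genes 5.18% were called higher there and 1.97% lower. S100a8 read 18.5, 2057 and 1423, at least 82.0-fold higher, and Ptgs2, the inducible cyclooxygenase, 45.6, 301 and 119, or 6.59-fold higher. For DSSPAR over DSS in colon 5 of 16 were lower (median -0.37), where 1.24% of all genes were called lower. They were Il6, the chemokine genes Ccl2 (3.25-fold), Cxcl5 (2.65-fold) and Cxcl1 (2.51-fold), and Ptgs2 (2.52-fold). The Il6 value is the one already given among the input genes. In liver DSS 7 of 15 were higher (median 0.84), where 4.73% of all genes were called higher. The furthest from CON were Prtn3, a neutrophil protease gene (44.4-fold), S100a8 (39.1-fold), S100a9 (21.7-fold), Cxcl1 (19.7-fold) and Cd14, the lipopolysaccharide co-receptor (7.10-fold).

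Adipogenic targets were called in both directions in liver, and most stress response genes were not called. Adipoq, the adipocyte hormone adiponectin, read 28.3, 82.5 and 31.6 in colon, and 2 of 8 adipogenic genes measured were higher in colon DSS, Adipoq and Fabp4, a fatty acid carrier (2.72-fold; median 0.47). Of all genes 5.18% were called higher there. In liver DSS 5 of 7 were called, 3 higher and 2 lower, where 4.73% of all genes were called higher and 4.20% lower. Lpl, lipoprotein lipase, was 3.26-fold, Fabp4 2.57-fold and Cd36, a fatty acid transporter, 2.52-fold higher. Slc2a4, the insulin-regulated glucose transporter, was 2.90-fold lower, and Pparg, which C/EBPβ and C/EBPδ induce in adipogenesis, at least 2.08-fold lower. In liver DSSPAR Fabp4 was 4.02-fold and Lpl 2.91-fold lower than in DSS, while Pparg was at least 2.22-fold higher. Of 20 amino acid and ER stress genes in colon DSS 1 was higher, Psat1, of serine synthesis (3.21-fold, list median 0.16). This is near the 5.18% of all genes called higher there, and the share in liver DSS was 4.73%. In liver DSS 3 of 22 were higher, Asns, asparagine synthetase (2.27-fold), Nupr1 (at least 2.24-fold) and Atf3 (at least 2.11-fold), with a median of -0.02.

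**Figure D5:**
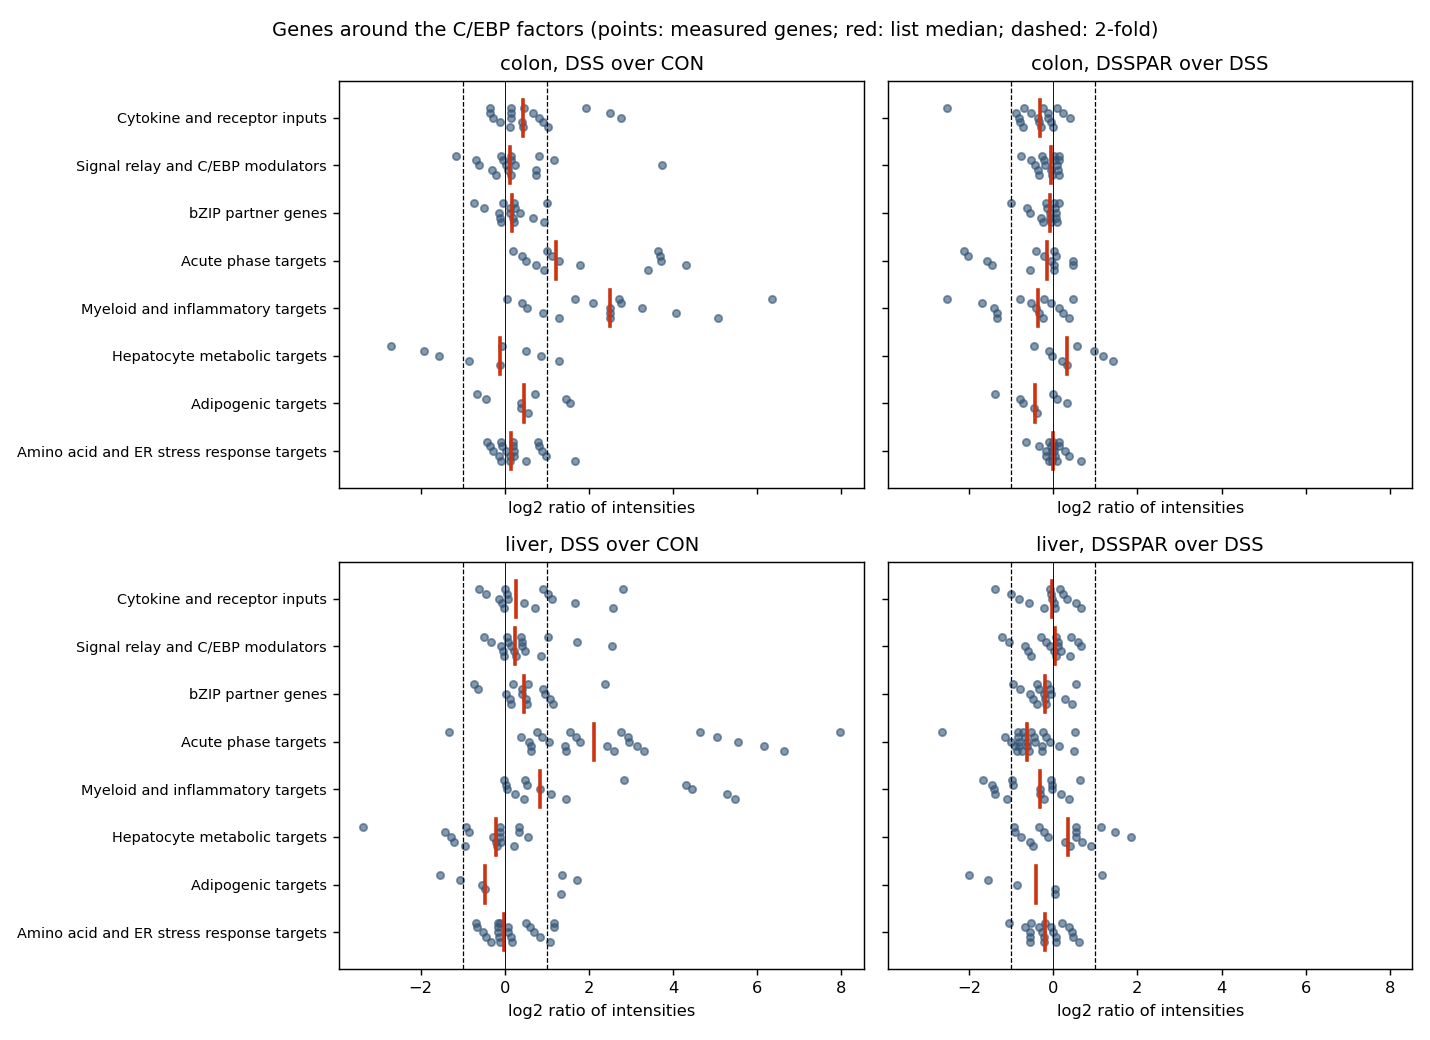
Log2 ratio (horizontal axis) of each measured gene (points) in lists of inputs, relays, partners and targets of the C/EBP factors, for DSS over CON (left) and DSSPAR over DSS (right) in colon (top) and liver (bottom), with list medians in red and 2-fold dashed. The acute phase median is 1.21 in colon and 2.12 in liver for DSS over CON, and -0.13 and -0.62 for DSSPAR over DSS.

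Markers of immune cells were higher in DSS in both tissues, as was Cebpd by its bright probe set, while Cebpb was called in colon only. For DSS over CON, 5.18% of all genes were called higher and 1.97% lower in colon, and 4.73% and 4.20% in liver. In colon, 11 of 13 measured macrophage markers were higher in DSS than in CON (median 1.72), and the summed intensity of the 15 on the array was 2087 in CON, 7357 in DSS and 6802 in DSSPAR. Neutrophil markers were higher in 3 of 6 measured cases (median 1.74), with sums of 142, 3234 and 2535, but Csf3r, Cxcr2, Camp, Mpo and Elane lay under the floor in every colon array. S100a8 (18.5, 2057 and 1423) and S100a9 (9.96, 839 and 923) made up most of the DSS and DSSPAR sums. Fibroblast markers were higher in 2 of 7 (sums 5536, 10615 and 8007) and adipocyte markers in 3 of 4 measured (525, 1421 and 855). Exocrine pancreas markers were higher in 8 of 10 (median 3.18), and 8 of 10 were lower in DSSPAR than in DSS (median -3.18). In the latter comparison 1.24% of all genes were called lower. The pancreas marker sums were 2771, 4432 and 2247, of which Cela1, lowest in DSS, made up 2554, 1628 and 2036. Colonic epithelium markers summed to 48331, 45151 and 49412. Of these 12 markers, 3 were called lower in DSS than in CON and none higher (median -0.02). They were Fabp2 (7.05-fold), Cdx2 (2.23-fold) and Car1 (2.01-fold). In liver, macrophage markers were higher in 8 of 14 (sums 23669, 45665 and 40192) and neutrophil markers in 3 of 7 (1526, 23927 and 8990), with Mpo and Cxcr2 under the floor throughout. S100a8 (367, 14340 and 5429) and S100a9 (381, 8274 and 2602) made up most of the neutrophil sums in DSS and DSSPAR. Of the others measured, Ngp was 2.76-fold, Mmp8 at least 1.89-fold, Mmp9 at least 1.66-fold, Elane 1.39-fold and Ltf 1.19-fold higher in DSS. The part of these cells in the values of Cebpb and Cebpd was not tested, and in a pooled tissue more cells of a type cannot be told apart from more RNA per cell.

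The genes whose 4 log2 ratios (DSS and DSSPAR against CON in colon and in liver) lay nearest to each family member were found among 11007 genes by Euclidean distance in log2 units. For Cebpa the nearest were Nr1i2, the nuclear receptor PXR (distance 0.13), Hagh (0.16) and Amn1 (0.24). For Cebpd they were Alox5ap, which activates 5-lipoxygenase for leukotriene synthesis (0.23), Csf2rb2, a cytokine receptor chain (0.36), and Clca3a1 (0.39). For Cebpb they were Aurka, a mitotic kinase (0.30), Hk3, a hexokinase of myeloid cells (0.33), and Cpne2 (0.40), and for Cebpg Arhgef5 (0.07) and Maml1 (0.09). Alox5ap had ratios of 1.64 and 1.26 in colon and 1.04 and 0.55 in liver, beside 1.77, 1.20, 1.23 and 0.53 for Cebpd. It was chosen for closeness on these ratios, so their likeness follows from the choice. The dim Cebpd probe set gave 0.22, -0.41, -0.47 and -0.57 in the same order, and genes near those values were not sought. Each distance rests on 6 arrays that all genes share.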

How the data were processed

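The deposited table holds 1 linear intensity per probe set and array, made by the authors with MAS5, per the submitters' processing notes. MAS5 multiplies each array by a single factor, and neither version nor scaling target was stated in the labels. Trimmed mean intensities were 106 to 111 in colon and 500.0 in liver, so the tissues were analysed apart. Of 45101 probe sets 34958 had 1 gene symbol in the platform annotation, 932 had several and 9211 were not listed. Each gene was read through its brightest probe set, ranked by mean log2 intensity in a tissue. Values below the floor were set to it, which makes such folds lower bounds, and genes under it in both arrays left the comparison. Ratios were computed for all genes, with no test. Members and gene lists were chosen with earlier results of these data known. Some genes are in more than 1 list, so the lists are not independent. Il6, Il1b, Tnf and Csf3 are both inputs and myeloid targets. S100a8, S100a9, Cd14, Adipoq, Fabp4 and Fgb are among those in both a target list and a cell marker list. The text names, of each list, the up to 5 genes per direction and comparison past 2-fold with the largest ratios, each at least once but not at every comparison, those followed across comparisons or tissues, and Ddit3, Il6, Il1b, Stat3, Socs3, Trib1 and Nfkbiz in any case. The 3 genes nearest to each member were named, except predicted models and Rik clones. Python 3.11.15, NumPy 2.4.6, pandas 2.3.3 and matplotlib 3.10.9 were used, and the procedure was tested on simulated data. Alternatives changed the floor, scaling, probe set and threshold.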

Additional observations from a re-analysis of the deposited data

Results flagged for a closer look

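The log2 ratios of some genes had opposite signs in colon and liver under the same comparison, and none of these differences was tested, since each tissue had 1 array per group. Cebpa was higher in DSSPAR than in DSS in colon (log2 ratio 0.73) and lower in liver (-0.42, within the spread of 0.57 between probe sets), a difference of 1.15. Cebpb was lower in colon (-0.94) and near 0 in liver (0.14), a difference of -1.07, while its second probe set had the same sign in both (-1.14 and -0.07). Il6ra, for DSSPAR against CON, was at -1.08 in colon, a bound, and 1.38 in liver, a difference of -2.46. Car3, an adipocyte and hepatocyte gene, was at 1.54 in colon and -1.14 in liver for DSS against CON, a difference of 2.68.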

How the results depend on the processing

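No paired analysis was possible because each group had 1 array per tissue and no replicate numbers. Cebpb for DSS over CON in colon stayed called under all its alternatives, the highest value being 1.83 and the lowest that of the second probe set (2.55-fold). Cebpd depended on its probe set. By the mean over both and by the second alone it gave 1.00 and 0.22 for DSS over CON in colon, 0.39 and -0.41 for DSSPAR over CON in colon, 0.38 and -0.47 for DSS over CON in liver, and -0.21 and -0.57 for DSSPAR over CON in liver. Its second probe set gave -0.10 for DSSPAR over DSS in liver. Cebpb for DSSPAR over DSS in colon passed 2-fold by the mean (-1.04) and second probe set (-1.14). For DSSPAR over CON in colon it gave 1.09 with arrays centred on their medians and 0.22 by the second probe set. The second Cebpg probe set gave -0.50 for DSSPAR over CON in colon, and 0.87 for DSS over CON and -0.80 for DSSPAR over DSS in liver. Cebpa has 1 probe set and could not be measured in colon with the floor at the 75th percentile. Centring on probe sets above the floor was chosen after seeing the data. The cause of these differences was not tested.

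Counts of genes called follow, higher then lower, for DSS over CON, DSSPAR over DSS and DSSPAR over CON. With the floor at the 75th percentile they were 274 and 102, 20 and 51, 208 and 87 in colon, and 275 and 195, 150 and 230, 173 and 113 in liver. With no floor they were 1850 and 1719, 1295 and 1532, 1594 and 1842 in colon, and 2076 and 2750, 1934 and 2632, 1590 and 2991 in liver. By the second probe set, with fewer genes tested, they were 159 and 122, 8 and 115, 94 and 288 in colon, and 211 and 251, 192 and 197, 171 and 138 in liver. At 3-fold they were 210 and 62, 1 and 35, 125 and 63 in colon, and 140 and 90, 35 and 68, 85 and 54 in liver. With arrays centred on their medians they were 704 and 191, 108 and 79, 890 and 121 in colon, and 854 and 349, 674 and 332, 1007 and 188 in liver. For DSSPAR over DSS in colon, quantile scaling gave 66 and 92, and centring above the floor 68 and 99. The second Cebpd probe set was above the floor in 2 of 3 liver arrays.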
